A study of Mus musculus with 12 samples.

Results

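The cytotoxic cells of the mouse aorta, cytotoxic T cells and natural killer (NK) cells together, made up 731 of the 38072 cells that passed the limits in 4 single-cell RNA libraries. They were chosen by a rule on measured expression: a barcode needed more than 200 genes, more than 1000 unique molecular identifiers (UMIs, each a tag for 1 captured RNA molecule) and less than 10% mitochondrial UMIs, at least 1 UMI of at least 3 of the 6 genes Ccl5, Nkg7, Gzma, Xcl1, Klrd1 and Ctsw, and no UMI of the B cell genes Cd79a and Ms4a1. Of these cells, 431 had a UMI of Cd3d, Cd3e or Cd3g, which encode the signalling chains of the T cell receptor, and are called T receptor gene positive. The other 300 had none and are called T receptor gene negative.

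Killer lymphocytes carry preformed granules of granzymes and perforin, which they release onto a target cell, and they secrete chemokines and interferon gamma. A CD8 T cell is directed by its rearranged T cell receptor together with the CD8 coreceptor, whereas an NK cell has no rearranged receptor and reads germline-encoded receptors such as Ncr1 and the Klr family through adaptors such as Tyrobp and Fcer1g. Both kinds of cell are found in the vessel wall and in the fat around it.

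The study examined atherosclerosis (AS) and methazolamide (MTZ), a carbonic anhydrase inhibitor, in male C57BL/6J mice described as ApoE-/-, a deletion that raises blood lipids and that the labels give to all 4 groups. The mice entered at 8 weeks of age and were fed for 24 weeks, and 6 aortas per group were pooled into 1 library, so each condition had 1 replicate. Healthy mice received a normal diet and saline, and AS mice received a high-fat diet and saline. MTZ-treated mice received the high-fat diet with saline at first and then 25 mg/kg MTZ for the last 12 weeks, and MTZ-preventive mice received the high-fat diet with 25 mg/kg MTZ for all 24 weeks. The same cell suspensions also gave libraries of T cell receptor (TCR) and B cell receptor (BCR) contigs, which are assembled receptor transcripts.

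With 1 library per condition, no difference between conditions was tested, and the 95% intervals given below are exact and cover counting error only. Levels are UMIs summed over the cells of a fraction and given as counts per 1000000 summed UMIs of that fraction (CPM). The summed depth was 994035, 81393 and 471738 UMIs in the T receptor gene positive cells and 267391, 213959 and 212119 UMIs in the T receptor gene negative cells of the Healthy, MTZ-treated and MTZ-preventive libraries, in that order. The median depth per cell ran from 1740 to 3746 UMIs in the positive and from 1545 to 2471 UMIs in the negative fraction. Apoe itself was at 677 CPM over all cells of the library labelled Healthy and between 8.46 and 12.6 CPM in the other 3, against the ApoE-/- label of the Healthy group. A barcode also present in another library was carried by 66 of the 731 cells, but only 2 pairs of cytotoxic cells shared one, and no barcode was shared together with its TCR sequence.

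Cytotoxic cells were almost missing from the AS library. They numbered 350 of 12340 cells in the library labelled Healthy (2.84%, interval 2.55 to 3.14) and 1 of 2201 cells in the AS library (0.0454%, interval 0.00115 to 0.253). They numbered 137 of 7215 cells in the MTZ-treated library (1.90%, interval 1.60 to 2.24) and 243 of 16316 cells in the MTZ-preventive library (1.49%, interval 1.31 to 1.69). The AS share was 0.0160 times the share in the library labelled Healthy (interval 0.000404 to 0.0898), and both MTZ libraries lay above the AS library, by 41.8 times (interval 7.38 to 1663) and 32.8 times (interval 5.83 to 1300). The AS library had few cells with a T receptor gene of any kind, 47 against 2663, 334 and 1838 in the Healthy, MTZ-treated and MTZ-preventive libraries. It also had few cells with both Cd79a and Ms4a1, 8 against 1795, 48 and 612. Only 2201 of its 6908 barcodes passed the limits, and their median depth was 1300 UMIs. In the other libraries the median was 2002, 1569 and 1770 UMIs, in the same order.

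**Figure D1:**
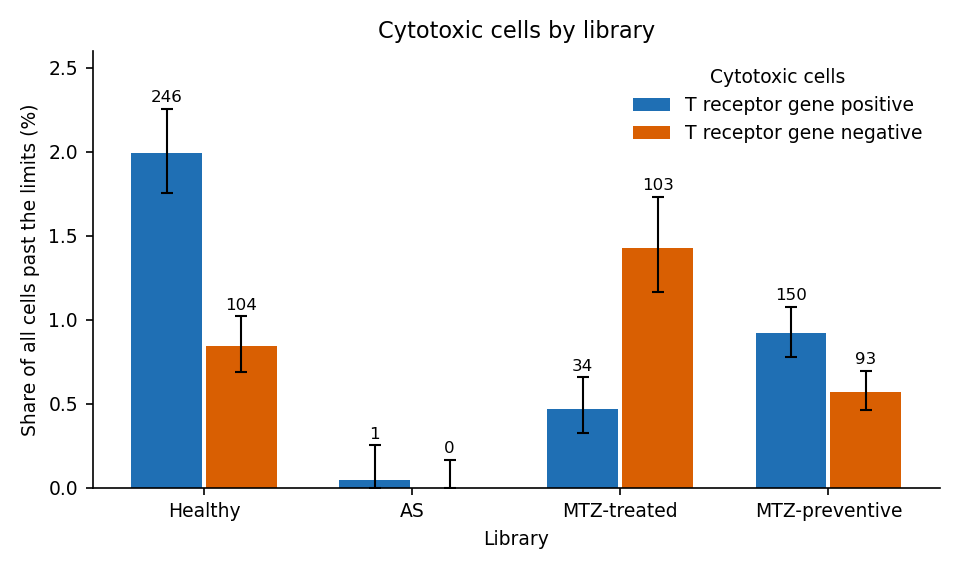
Share of all cells past the limits, in percent, that were cytotoxic, for the T receptor gene positive and negative fractions (bars) in the 4 libraries, with exact 95% counting intervals. The positive share was highest in the library labelled Healthy (1.99%) and the negative share in the MTZ-treated library (1.43%, not separable from the library labelled Healthy without mixed barcodes), while the AS library held 1 cell.

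The T receptor gene positive and negative fractions did not follow the same order over the libraries. The positive cells were 1.99%, 0.471% and 0.919% of all cells in the library labelled Healthy, the MTZ-treated library and the MTZ-preventive library. The negative cells were 0.843%, 1.43% and 0.570% in the same order, and 0 of 2201 in the AS library, which allows a share of up to 0.136%. The MTZ-treated library was thus lowest of these 3 for the positive and highest for the negative fraction. Its positive share was 0.236 times (interval 0.160 to 0.339) and its negative share 1.69 times (interval 1.28 to 2.25) that of the library labelled Healthy, and the MTZ-preventive library had 1.95 times its positive share (interval 1.34 to 2.92) and 0.399 times its negative share (interval 0.298 to 0.534). Mixed barcodes, those with at least 3 markers of another cell class or a BCR contig, changed 1 of these values: without them the negative share of the MTZ-treated library was 1.17 times that of the library labelled Healthy (interval 0.826 to 1.64), which includes equal shares, whereas its positive share was 0.206 times (interval 0.133 to 0.308) and the MTZ-preventive negative share was 0.450 times the MTZ-treated one (interval 0.310 to 0.653). Among the cytotoxic cells, the negative fraction was 29.7% (interval 24.97 to 34.8), 75.2% (interval 67.1 to 82.2) and 38.3% (interval 32.1 to 44.7). Thinned to 1000 UMIs per cell, these shares were 58.1%, 82.7% and 58.8%, and the MTZ-treated library was again the highest.

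As a share of all T receptor gene positive cells without B cell genes, cytotoxic cells differed little between libraries. They were 9.24% of 2663 cells in the library labelled Healthy, 10.2% of 334 in the MTZ-treated library and 8.16% of 1838 in the MTZ-preventive library. The AS library had 1 of 47 (2.13%, interval 0.0539 to 11.3), an interval that overlaps the other 3 values.

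The 6 genes of the rule are a description here, with no test, since they chose the cells. Ccl5, a chemokine stored by killer cells, was at 20980, 17947 and 12550 CPM in the negative cells of the library labelled Healthy, the MTZ-treated and the MTZ-preventive library, and at 5755, 16095 and 9175 CPM in the positive cells. Gzma, a granzyme, was at 6317, 7202 and 2984 CPM in the negative and 416, 811 and 485 CPM in the positive cells. Nkg7, a granule membrane protein, was at 1296 to 2398 CPM in the negative and 853 to 1597 CPM in the positive cells. Xcl1, a chemokine for dendritic cells, was at 276 to 812 against 165 to 283 CPM, Klrd1, the CD94 receptor chain, at 210 to 352 against 155 to 246 CPM, and Ctsw, a cathepsin, at 341 to 610 against 434 to 494 CPM. Cells with smooth muscle markers, which should lack these genes, had 55.8 to 64.1 CPM of Ccl5, 3.72 to 12.9 CPM of Gzma and 3.11 to 17.1 CPM of Nkg7 in the same libraries.

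Most positive cells sat at the edge of the rule and the negative cells less so, though not clearly in the MTZ-treated library. There 52.9% of positive (interval 35.1 to 70.2) and 44.7% of negative cells (interval 34.9 to 54.8) had exactly 3 of the 6 genes. In the MTZ-preventive library these shares were 64.0% (interval 55.8 to 71.7) and 43.0% (interval 32.8 to 53.7). In the library labelled Healthy, 141 of the 246 positive cells had exactly 3 of the 6 genes and 3 had all 6, against 31 and 10 of the 104 negative cells. Just outside the rule, with 2 of the 6 genes, stood 350 positive and 87 negative cells. The positive cells of this library had 488 CPM of the CD8 chain gene Cd8b1 and a TCR contig in 56.7% of cells inside the edge and 457 CPM and 50.3% outside. In the MTZ-treated library the same values were 183 CPM and 11.1% of 18 cells inside against 162 CPM and 29.4% of 34 cells outside, and in the MTZ-preventive library 364 CPM and 46.9% against 216 CPM and 42.4%. The negative cells of the library labelled Healthy had 889 CPM of Tyrobp and 127 CPM of Ncr1 inside against 287 and 5.86 CPM outside. Inside and outside the edge, Tyrobp in the negative cells was at 848 and 324 CPM in the MTZ-treated library, and at 395 and 254 CPM in the MTZ-preventive one.

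The single cytotoxic cell of the AS library was T receptor gene positive. It held 2571 UMIs, among them 12 of Ccl5, 6 each of Ccl4 and Ifng, 3 of Ctsw, 2 of Cd8b1 and 1 each of Nkg7, Gzmk, Tbx21 and Cxcr3, and it had no TCR contig. No level of a cytotoxic gene was compared with the AS library for this reason.

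The TCR libraries, which the rule did not use, separated the fractions. A productive TCR contig was found in 139 of 246 positive cells of the library labelled Healthy (56.5%, interval 50.1 to 62.8), in 9 of 34 of the MTZ-treated library (26.5%, interval 12.9 to 44.4) and in 78 of 150 of the MTZ-preventive library (52.0%, interval 43.7 to 60.2). In the negative cells it was found in 1 of 104 (0.962%, interval 0.0243 to 5.24), 0 of 103, which allows a share of up to 2.91%, and 2 of 93 (2.15%, interval 0.262 to 7.55). The intervals of the 2 fractions did not overlap in any of these libraries. For comparison, CD8 T cells with no UMI of the 6 genes carried a contig in 69 of 185 cells (37.3%) of the library labelled Healthy and in 30 of 111 cells (27.0%) of the MTZ-preventive library. BCR contigs occurred in 2, 0 and 1 of the cytotoxic cells of the Healthy, MTZ-treated and MTZ-preventive libraries. The MTZ-treated TCR library was small, with 42 barcodes against 1281 and 601, and the AS one had 3.

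**Figure D2:**
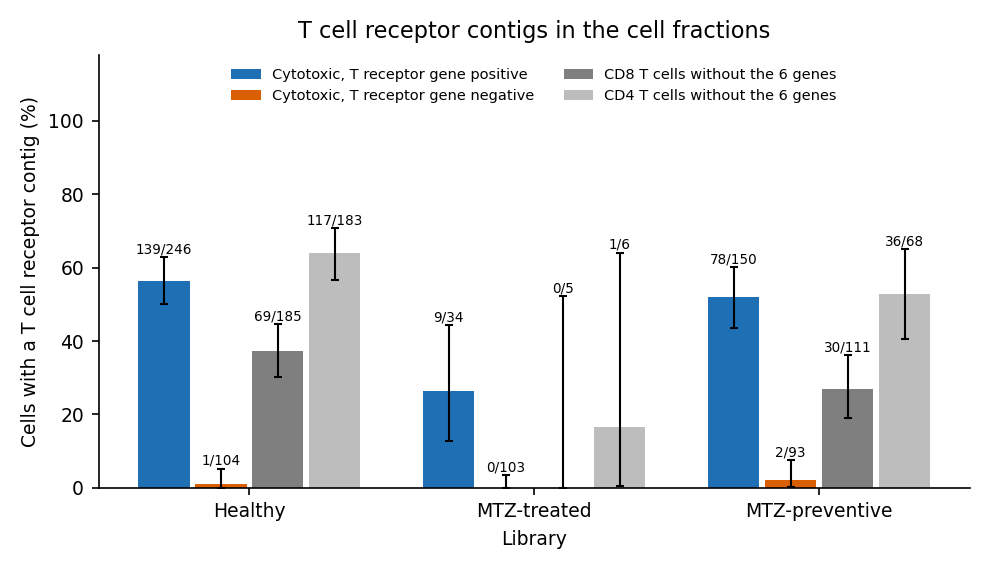
Percent of cells with a productive TCR contig (bars, with exact 95% counting intervals) in the cytotoxic fractions and in CD8 and CD4 T cells without the 6 genes, in 3 libraries. The T receptor gene negative cells lay between 0 and 2.15%, and the positive cells between 26.5% and 56.5%.

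The label of cytotoxic T cells held for the positive fraction in part. A UMI of Cd8a or Cd8b1 was found in 180 of 246 positive cells (73.2%) of the library labelled Healthy, 17 of 34 of the MTZ-treated library and 86 of 150 (57.3%) of the MTZ-preventive library, and a UMI of Cd4 in 4, 0 and 5 cells. Cells with no coreceptor UMI numbered 62, 17 and 60. Cd8b1 was at 429, 307 and 371 CPM in the positive cells and at 18.7, 9.35 and 4.71 CPM in the negative cells, and in cells with smooth muscle markers it was at 17.8, 0.542 and 7.94 CPM. The delta chain gene Trdc had a UMI in 5, 1 and 1 of the positive and in 2, 0 and 1 of the negative cells.

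The negative fraction carried the adaptor gene Tyrobp in most of its cells. A UMI of Ncr1, Klrb1c or Klre1 was found in most negative cells of the library labelled Healthy only. These 3 receptor genes of NK cells had a UMI in 72 of 104 (69.2%), 46 of 103 (44.7%) and 44 of 93 (47.3%) negative cells, and in 38 of 246 (15.4%), 3 of 34 (8.82%) and 14 of 150 (9.33%) positive cells. These shares are without thinning, and the median depth of the negative cells was 2471, 1545 and 1925 UMIs in the same order. At least 3 of the 7 NK markers (Ncr1, Klrb1c, Klre1, Klra8, Eomes, Tyrobp and Fcer1g) were found in 74 of 104, 56 of 103 and 47 of 93 negative cells and in 16 of 246, 1 of 34 and 4 of 150 positive cells. The adaptor gene Tyrobp was found in 82.7%, 72.8% and 69.9% of negative cells, 8.13%, 11.8% and 2.67% of positive cells and 4.17%, 7.58% and 4.66% of cells with smooth muscle markers. After thinning to 1000 UMIs, Tyrobp was still found in 74.0%, 63.1% and 58.1% of negative cells.

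**Figure D3:**
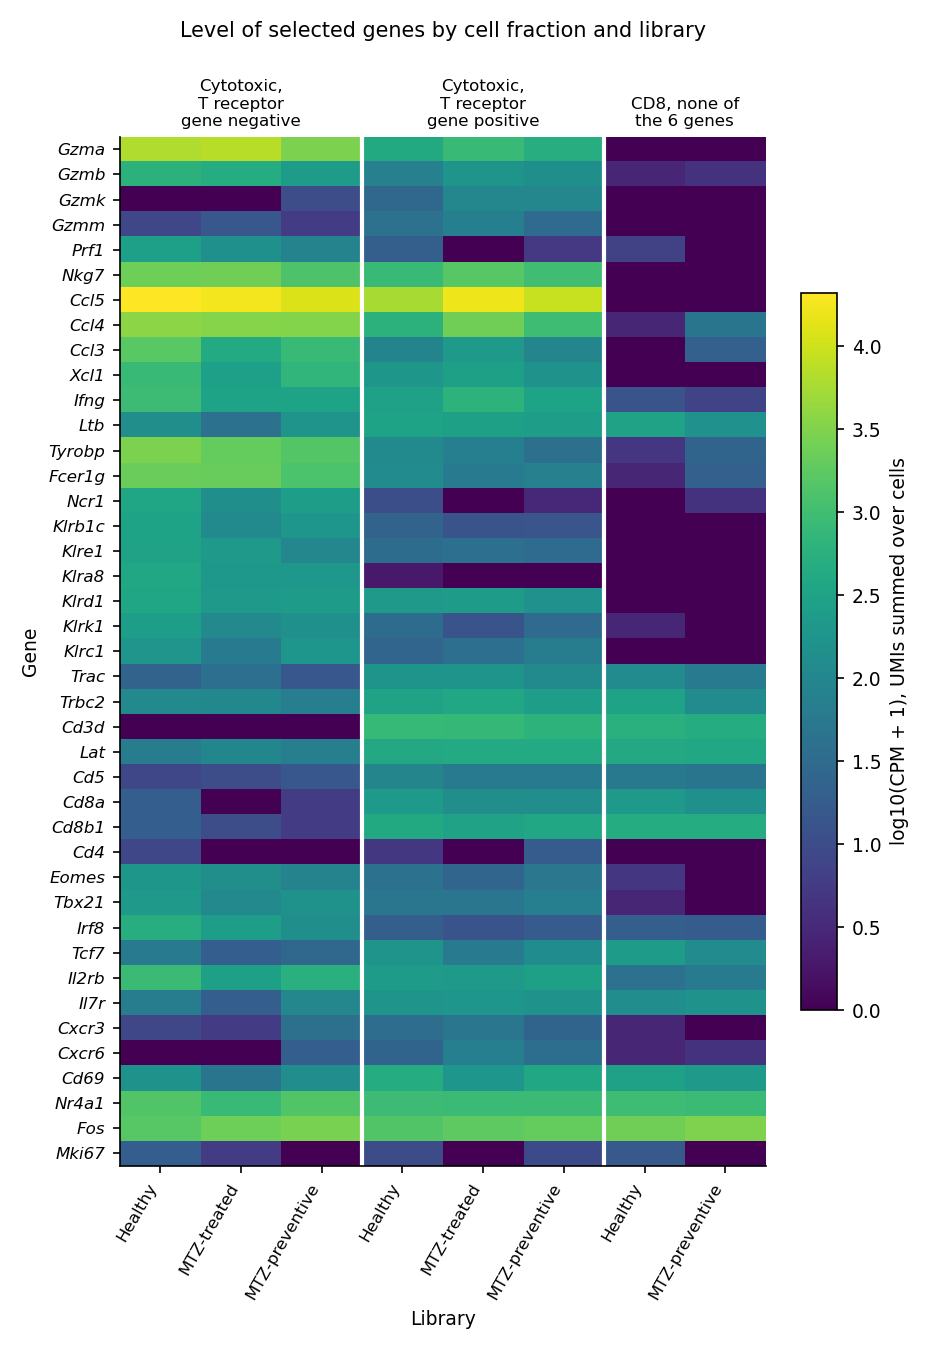
Levels of selected genes, as log10(CPM + 1) of UMIs summed over cells (colour), in the T receptor gene negative and positive cytotoxic cells and in CD8 T cells without the 6 genes, by library. NK receptor genes such as Ncr1 (140 to 344 CPM) were high in the negative cells, and Cd8b1 (307 to 429 CPM in the positive cells) was high in the other columns.

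The T receptor gene negative cells were compared with the positive cells of the same libraries by edgeR's quasi-likelihood test on summed UMIs, with the library as a block and Benjamini-Hochberg adjustment. The 3 libraries with at least 20 cells of each fraction entered, and the genes of the rule were left out. Of 2937 genes tested, 121 (4.12%) were higher in the negative and 127 (4.32%) higher in the positive cells at an adjusted p under 0.05. Without the MTZ-preventive library the total of 248 fell to 81, of which 71 were among the 248, and without the Healthy or the MTZ-treated library it was 253 and 234, of which 121 and 145 were. It was 44 without the block and 89 by DESeq2, and 622 genes had an unadjusted p under 0.05. Since the fractions were split by genes of the T cell receptor complex, a difference in other genes of that complex follows the split. A gene near 0 in 1 fraction passes the filter on low counts only through the other fraction and can then be called in 1 direction only, so the list counts below describe the genes that passed.

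NK cell receptors and adaptors were the list with the most calls. Of 18 tested of 29 listed genes, 15 were higher in the negative cells, 0 in the positive cells and 3 did not pass, with a median log2 fold of 3.26 against 0.06 over all genes. Ncr1 (NKp46, an activating receptor) was at 344, 140 and 250 CPM in the negative cells of the library labelled Healthy, the MTZ-treated and the MTZ-preventive library and at 10.1, 0 and 2.12 CPM in the positive cells, without overlap, and its log2 fold was 5.17 ± 0.36 (SE, edgeR adjusted p = 1.26e-06). Tyrobp, the adaptor DAP12, was at 2906, 2024 and 1466 against 116, 73.7 and 38.2 CPM, a log2 fold of 4.64 ± 0.26 (edgeR adjusted p = 2.58e-07). Both genes kept the call in 10 of 10 alternatives.

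Among the Ly49 receptors, Klra4, the activating receptor Ly49D, had a log2 fold of 5.57 ± 0.39 (edgeR adjusted p = 1.26e-06). Klra8, the activating receptor Ly49H, gave 189 UMIs in the negative cells and 1 UMI in the positive cells, a pooled ratio with an interval of 74.8 to 16742. The adaptor Fcer1g rose by 4.05 ± 0.27, the NK1.1 gene Klrb1c by 3.51 ± 0.28 and the NKG2D gene Klrk1 by 2.44 ± 0.29 on the log2 scale, each called in 10 of 10 alternatives. Hcst, the adaptor DAP10, was not called, at 535, 589 and 335 CPM in the negative and 581, 971 and 500 CPM in the positive cells (log2 fold -0.65 ± 0.20, edgeR adjusted p = 0.073). Cd7, at 434, 178 and 368 against 174, 209 and 161 CPM, was not called either and was higher in the positive cells of the MTZ-treated library.

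The granule genes divided. Prf1, the pore former perforin, was at 277, 145 and 84.9 CPM in the negative and 19.1, 0 and 4.24 CPM in the positive cells (log2 fold 3.75 ± 0.36, edgeR adjusted p = 3.17e-05). Gzmb, the granzyme that cleaves caspases, was at 606, 481 and 236 against 76.5, 172 and 142 CPM, again without overlap, but its call (log2 fold 1.62 ± 0.35, edgeR adjusted p = 0.0147) held in only 6 of 10 alternatives, with a highest adjusted p of 0.165. The inhibitor of granzymes Serpinb6b was the remaining gene called of 8 tested of 17 listed granule genes. Srgn, the proteoglycan of the granule matrix, and Cst7, an inhibitor of cathepsins, were not called (log2 folds of 0.09 and 0.48). Gzmk was not tested here, and its UMIs ran the other way, at 0, 0 and 9.43 CPM in the negative and 27.2, 98.3 and 97.5 CPM in the positive cells.

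The secreted factors went both ways. The chemokine Ccl3 was at 1642, 444 and 820 CPM in the negative and 89.5, 209 and 91.2 CPM in the positive cells (log2 fold 2.89 ± 0.40, edgeR adjusted p = 0.000616), and Ccl4 was at 3744, 3412 and 3347 against 591, 2470 and 952 CPM (log2 fold 1.48 ± 0.31, edgeR adjusted p = 0.0114, called in 7 of 10 alternatives). Tnf (tumour necrosis factor) and Ltb (lymphotoxin beta) were higher in the positive cells, by log2 folds of -1.12 and -1.54 as negative over positive, but Tnf was called in only 5 of 10 alternatives, with a highest adjusted p of 0.231 in edgeR or DESeq2, and Ltb in 9 of 10. Ifng, the gene of interferon gamma, did not separate the fractions: it was at 927, 322 and 325 CPM in the negative and 298, 627 and 316 CPM in the positive cells, which overlap (log2 fold 0.15 ± 0.35, edgeR adjusted p = 0.858).

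On the positive side stood the coreceptor and receptor genes. Cd8b1 fell by 5.20 ± 0.34 on the log2 scale in the negative cells (edgeR adjusted p = 1.06e-06) and Cd8a by 4.42 ± 0.43. Of 16 tested of 23 listed genes of the T cell receptor complex and its signalling, 8 were higher in the positive and 0 in the negative cells. They included the constant regions Trac (log2 fold -2.86) and Trbc2 (-1.91), the adaptor Lat (-2.71), Thy1 (-1.94) and Lck (-0.85, called in only 4 of 10 alternatives), and Cd6, with 126 UMIs against 3. Lck, a kinase that both T and NK cells use, was at 326, 209 and 307 CPM in the positive and 288, 74.8 and 189 CPM in the negative cells. Among genes outside the functional lists, Rgs10 (log2 fold -4.25), the kallikrein gene Klk8 (-3.63) and Ms4a6b (-2.96) were higher in the positive cells, and Cma1 (4.46), Cited4 (4.23), Hhex (3.98) and Car2 (3.83) in the negative cells. Cma1 is also 1 of 7 markers listed for mast cells and basophils, which summed to 127, 98.1 and 108 CPM in the negative and 6.04, 0 and 0 CPM in the positive cells, with the markers Cpa3, Mcpt4, Tpsb2, Fcer1a and Mcpt8 at 0 UMIs in each of these fractions.

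Of the transcription factors, 5 of 13 tested were higher in the negative and 1 in the positive cells. Irf8 was at 494, 252 and 141 CPM in the negative and 19.1, 12.3 and 17.0 CPM in the positive cells (log2 fold 3.92 ± 0.33, edgeR adjusted p = 9.49e-06, called in 10 of 10 alternatives). Eomes and Tbx21 (T-bet), which drive the killer program, were at 84.9 to 194 against 24.6 to 50.9 CPM and at 107 to 217 against 48.3 to 72.1 CPM, and their calls held in 5 of 9 and 6 of 10 alternatives. Tcf7 (TCF1), a factor of naive and memory T cells, was the gene higher in the positive cells, at 171, 61.4 and 125 against 56.1, 18.7 and 28.3 CPM (log2 fold -2.02, edgeR adjusted p = 0.00104).

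Cytokine receptors, homing genes and interferon-stimulated genes gave further differences. Il7r and Il21r, receptors for T cell cytokines, were higher in the positive cells (log2 folds of -1.64 and -2.13), and Il2rb, the shared receptor chain for IL-2 and IL-15, was higher in the negative cells (1.001 ± 0.26, edgeR adjusted p = 0.0297, called in 5 of 10 alternatives). Cd69, which holds lymphocytes in tissue, was at 480, 184 and 390 CPM in the positive and 161, 46.7 and 132 CPM in the negative cells (log2 fold -1.87 ± 0.22, edgeR adjusted p = 0.000214). Of 8 interferon-stimulated genes tested, 6 were higher in the positive and 0 in the negative cells, among them Ifi27l2a at -1.61, Irf7 at -1.36, Zbp1 at -1.30, Bst2 at -0.996 and Isg15 at -0.83, and each was called in 3 to 6 of its 7 to 10 alternatives. In the MTZ-preventive library Ifi27l2a was higher in the negative cells, at 618 against 513 CPM. By contrast, 0 of 20 immediate early and stress genes passed edgeR's threshold, with a median log2 fold of -0.05. Nr4a1, which antigen receptor signalling induces, was at 1384, 818 and 1405 CPM in the negative and 915, 885 and 895 CPM in the positive cells (log2 fold 0.21 ± 0.20, edgeR adjusted p = 0.616). Of the cell division genes, Mki67 was at 0 to 18.7 CPM in the negative and 0 to 9.05 CPM in the positive cells, while Pclaf, a replication factor, was at 123 CPM in the MTZ-treated positive cells, from 10 UMIs, and at 12.1 and 12.7 CPM in those of the Healthy and MTZ-preventive libraries.

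The T receptor gene positive cytotoxic cells were next set against CD8 T cells with a T receptor gene and none of the 6 genes. CD8 T cells with 1 or 2 of these genes, which stand closer to the rule, were in neither group. With those cells added to the other CD8 T cells, 70 genes were called. The libraries labelled Healthy (246 against 185 cells) and MTZ-preventive (150 against 111 cells) had enough of both, and the same test was run with library as a block, again without the genes of either definition. The cytotoxic cells were not restricted to those with a CD8 UMI. Their median depth was 3746 and 2987 UMIs in the Healthy and MTZ-preventive libraries, against 2417 and 2183 UMIs in the other CD8 T cells. Of 4979 genes tested, 108 (2.17%) were higher in the cytotoxic cells and 172 (3.45%) in the other CD8 T cells. With 2 libraries the block leaves 1 residual degree of freedom, so no library could be left out, and the total ran from 13 genes without the block to 703 without the filter on low counts.

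Killer genes that the rule did not use were among those higher in the cytotoxic cells. Of 8 granule genes tested, 5 were higher and 0 lower, but genes such as Gzmk, Gzmm and Gzmb passed the filter only through the cytotoxic cells and could not have been called lower. Gzmk, a granzyme of memory-like CD8 T cells, had 73 UMIs in the cytotoxic cells and 0 in the others, at least 13.6-fold higher, and Gzmm was at least 10.4-fold higher. Gzmb had 143 UMIs against 2, a ratio with an interval of 10.8 to 332. Ifng was at 298 and 316 CPM in the cytotoxic cells of the Healthy and MTZ-preventive libraries and at 11.5 and 6.73 CPM in the other CD8 T cells (log2 fold 4.98 ± 0.31, edgeR adjusted p = 0.0004), and it was called in 7 of 7 alternatives. Ccl4 was at 591 and 952 against 1.92 and 47.1 CPM (log2 fold 5.34 ± 0.45, edgeR adjusted p = 0.000753), and Ccl3 had a log2 fold of 3.60. Calls of Gzmk and Gzmm did not hold in DESeq2 or without the block.

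Of 11 NK receptor and adaptor genes tested, 8 were higher in the T receptor gene positive cytotoxic cells and 0 lower. Klrc1 (NKG2A), Klre1 and Klra7 had 0 UMIs in the other CD8 T cells and were at least 10.4-fold, 8.73-fold and 7.81-fold higher, and they too could be called in that direction only. Cd7 rose by 2.37 ± 0.28 on the log2 scale and was called in 7 of 7 alternatives. Fcer1g and Tyrobp rose by 3.57 and 2.93, and were called in 6 of 7 and 4 of 6 alternatives. The levels differed between positive cells with few and with all of the 6 genes. Tyrobp was at 12.3 CPM in the 141 positive cells of the library labelled Healthy with 3 of the 6 genes and at 2430 CPM in the 3 cells with all 6, and at 3.31 CPM in 96 cells and 2277 CPM in 1 cell of the MTZ-preventive library. Ncr1 was at 0 in the positive cells with 3 genes of both libraries. Leaving aside the receptors, Tbx21 had 82 UMIs against 1 (ratio interval 7.98 to 1827), Eomes 66 against 2, and Il2rb was at 238 and 284 against 40.4 and 57.2 CPM (log2 fold 2.48 ± 0.22, edgeR adjusted p = 0.000816, called in 7 of 7 alternatives).

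Homing receptors of activated T cells were also higher, with 6 of 15 tested homing and residency genes called and 0 in the other direction. Over all 4979 genes tested, 108 (2.17%) were higher in the cytotoxic cells. Cxcr3 and Cxcr6 passed the filter only through the cytotoxic cells and could not have been called lower. Cxcr3, the receptor for interferon-induced chemokines, gave 45 UMIs against 1 (ratio interval 4.28 to 1013), and Cxcr6 gave 41 against 2. Cd69 and Rgs1, both linked to residency, had log2 folds of 0.83 and 1.60, and the integrin genes Itgal and Itgb2 had 1.57 and 1.29. S1pr1 and Ccr7, genes of recirculating cells, were not called (log2 folds of -0.45 and 0.00). Of 6 inhibitory genes tested only Tigit passed, with 54 UMIs against 4, and it too could be called in that direction only. Pdcd1, the exhaustion receptor PD-1, was at 2.01 and 8.48 CPM in the cytotoxic cells. Of 20 immediate early and stress genes, Dusp2, Nfkbid and Tnfaip3 were higher and Fos was lower (log2 fold -0.66 ± 0.08, edgeR adjusted p = 0.00239), while Nr4a1 did not separate the cells (log2 fold 0.01 ± 0.11, edgeR adjusted p = 0.986). None of 13 interferon-stimulated genes passed edgeR's threshold.

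Among the 10 genes with the largest difference in the other direction were Timp1, Loxl2, Aqp1, Lbp, Htra3, Plvap, Mfap4, Emcn and Fxyd6, which are mostly genes of connective tissue and vessels rather than of lymphocytes. Endothelial markers summed to 1402 and 2142 CPM in the CD8 T cells without the 6 genes against 500 and 750 CPM in the cytotoxic cells, and fibroblast markers to 2454 and 3003 against 1097 and 530 CPM. Mixed barcodes were 24.9% and 32.4% of the CD8 T cells without the 6 genes, against 8.94% and 12.7% of the cytotoxic cells. With mixed barcodes left out, 166 genes were called, of which 80 were shared with the 280. Of the 280, 23 changed sign in that alternative, and 2 were called in the reverse direction. The part of RNA from other cells in this comparison was not otherwise tested.

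**Figure D4:**
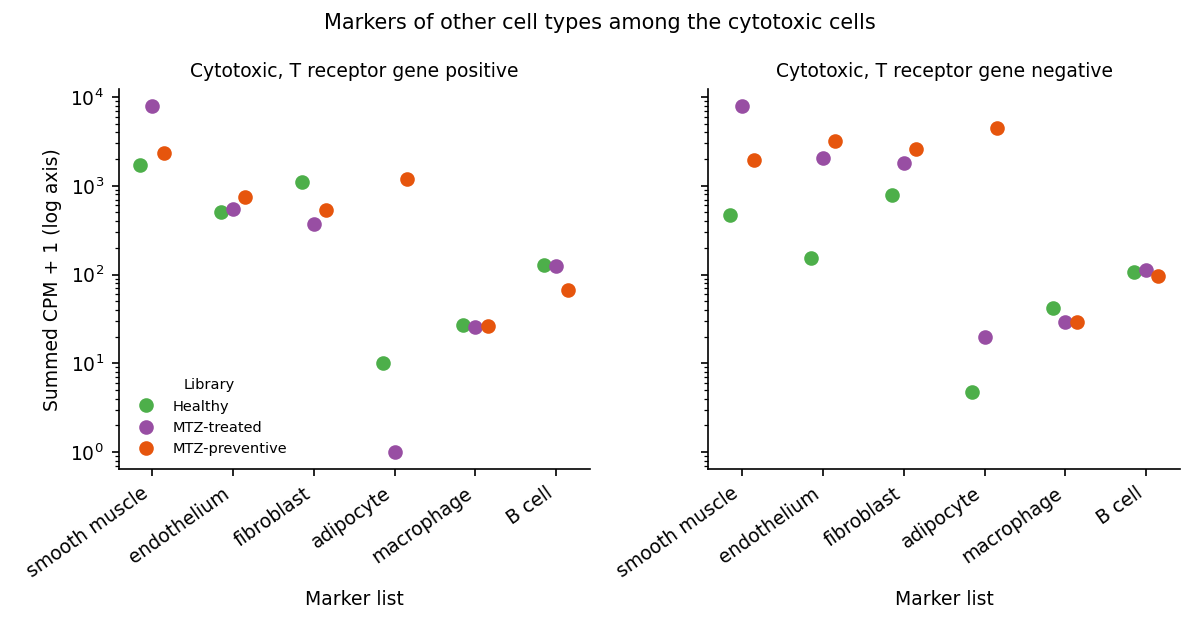
Summed CPM plus 1 (log axis) of marker lists of other cell types in the T receptor gene negative and positive cytotoxic cells, 1 point per library. Smooth muscle markers reached 7866 CPM in the negative cells of the MTZ-treated library and 467 CPM in those of the library labelled Healthy, while macrophage markers stayed between 24.6 and 41.1 CPM in all 6 fractions.

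RNA of other cell types moved with the conditions, and it stands before the comparison of libraries for that reason. Smooth muscle markers summed to 467, 7866 and 1933 CPM in the negative cells and 1701, 7863 and 2349 CPM in the positive cells of the Healthy, MTZ-treated and MTZ-preventive libraries. Endothelial markers summed to 153, 2061 and 3182 CPM in the negative cells, and adipocyte markers to 3.74, 18.7 and 4441 CPM. Both were lowest in the library labelled Healthy. Mixed barcodes were 10.9% of the cytotoxic cells in the library labelled Healthy, 36.5% in the MTZ-treated and 21.0% in the MTZ-preventive library. Values without these barcodes are given below beside most ratios, and leaving them out kept 88, 60 and 61 negative and 224, 27 and 131 positive cells.

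Levels were compared between libraries without a test, for genes that reached 100 CPM in 1 or both of them. In the negative cells, 28.7% of 1625 genes were past 2-fold in either direction between the MTZ-treated library and the library labelled Healthy, 18% of 1578 between the MTZ-preventive library and the library labelled Healthy, and 15.8% of 1574 between the MTZ-preventive and MTZ-treated libraries. In the positive cells the same shares were 28.7% of 1345, 3.83% of 1096 and 26.3% of 1348. The first 2 shares of the negative cells fell to 17.5% and 10.3% without the mixed barcodes. The 34 positive cells of the MTZ-treated library make its values the least precise, and their median gene stood 0.36 log2 above the library labelled Healthy. These comparisons share libraries, so they are not independent of each other.

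In the negative cells, Ifng and Ccl3 were lower in both MTZ libraries than in the library labelled Healthy, while Ccl4 and Gzmb were not clearly lower in both. Ifng was at 927 CPM in the library labelled Healthy and at 322 and 325 CPM in the MTZ-treated and MTZ-preventive libraries, ratios of 0.348 (interval 0.262 to 0.456) and 0.351 (interval 0.265 to 0.460). Without mixed barcodes the ratios were 0.511 and 0.379, so both MTZ libraries stayed below. Ccl3 had ratios of 0.270 (interval 0.214 to 0.338) and near 0.5 (interval 0.417 to 0.597), and of 0.447 and 0.672 without those barcodes. Ccl4 was close to the library labelled Healthy, with ratios of 0.911 (interval 0.827 to 1.004) and 0.894 (interval 0.811 to 0.985), and above it without mixed barcodes, at 1.38 and 1.15. Gzmb had a ratio of 0.795 (interval 0.615 to 1.02) in the MTZ-treated library, or 1.42 without mixed barcodes, and of 0.389 (interval 0.277 to 0.537) in the MTZ-preventive library, or 0.584. Prf1 had ratios of 0.524 (interval 0.333 to 0.806) and 0.307 (interval 0.172 to 0.519). Without mixed barcodes Prf1 was lower only in the MTZ-preventive library, with ratios of 0.955 (interval 0.602 to 1.48) and 0.376 (interval 0.191 to 0.685).

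Of 7 granule genes measured in the negative cells of the 2 MTZ libraries, 1 was past 2-fold higher in the MTZ-preventive library and 1 lower, with a median log2 ratio of 0.06 against -0.04 for all genes. Of all 1574 genes in that comparison, 133 were higher and 115 lower, 15.8% either way. Gzmb was at 481 CPM in the MTZ-treated and 236 CPM in the MTZ-preventive library, a ratio of 0.490 (interval 0.342 to 0.693) and of 0.413 (interval 0.282 to 0.595) without mixed barcodes. Serpinb6b was higher in the MTZ-preventive library, at 46.7 and 132 CPM, a ratio of 2.82 (interval 1.33 to 6.52) and of 3.38 (interval 1.43 to 9.22) without these barcodes. Il2rb also was higher there, at 280 and 547 CPM, a ratio of 1.95 (interval 1.42 to 2.71) and of 1.72 (interval 1.22 to 2.44) without them, with 894 CPM in the library labelled Healthy above both. Ltb was higher as well, at 42.1 and 170 CPM, a ratio of 4.03 (interval 1.91 to 9.52) and of 3.12 (interval 1.30 to 8.57) without mixed barcodes. Ccl4 differed little, at 3412 and 3347 CPM, a ratio of 0.981 (interval 0.883 to 1.09) and of 0.834 (interval 0.741 to 0.938) without them.

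NK cell receptors were lower in the MTZ libraries, but for several of them the difference was within counting error once mixed barcodes were left out. Of 18 measured receptor genes, 6 were past 2-fold lower and 0 higher in the MTZ-treated library than in the library labelled Healthy. Of all 1625 genes in that comparison, 212 were lower and 254 higher, 28.7% either way. The median log2 ratio of the receptors was -0.80 against -0.02 for all genes. In the MTZ-preventive library 5 of 17 were lower and 0 higher, with a median of -0.82 against -0.04. Of all 1578 genes there, 87 were lower and 197 higher, 18% either way. Ncr1 was at 344, 140 and 250 CPM, and its ratios to the library labelled Healthy of 0.408 and 0.726 became 0.680 (interval 0.425 to 1.05) and 1.05 (interval 0.723 to 1.52). Klrb1c kept a lower level in the MTZ-treated library, with ratios of 0.359 and 0.560 (interval 0.330 to 0.910) before and after. Klre1 was lower in the MTZ-preventive library, with ratios of 0.315 and 0.472 (interval 0.271 to 0.783). Id3, a transcription regulator also expressed in vessel wall cells, was 6.34 times higher in the MTZ-treated library with all barcodes and 2.62 times (interval 1.53 to 4.51) without the mixed ones.

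In the positive cells, 3 of 6 secreted factors and 2 of 4 granule genes measured were past 2-fold higher in the MTZ-treated library than in the library labelled Healthy and 0 lower, where 28.7% of all genes were past 2-fold either way, 304 of 1345 higher and 82 lower. Ccl4 was at 591, 2470 and 952 CPM in the Healthy, MTZ-treated and MTZ-preventive libraries, and the MTZ-treated level was 4.18 times that of the library labelled Healthy (interval 3.55 to 4.92), or 5.71 times without mixed barcodes. Ifng was at 298, 627 and 316 CPM, 2.10 times higher in the MTZ-treated library (interval 1.53 to 2.84) and 2.97 times without mixed barcodes. Gzmb was at 76.5, 172 and 142 CPM, and its MTZ-treated and MTZ-preventive levels were 2.25 and 1.86 times that of the library labelled Healthy, or 3.21 and 1.90 times without mixed barcodes. Other genes of these lists were not highest there: Tnf was at 260, 147 and 269 CPM and Prf1 at 19.1, 0 and 4.24 CPM, with 3 UMIs standing for 36.9 CPM in the MTZ-treated cells. The ratios of Ccl4 and Ifng exceed the 0.36 log2 shift of the median gene in the MTZ-treated library. All ratios between libraries leave out the TMM normalization factors, 0.877 (Healthy) and 1.28 (MTZ-treated) for the positive cells. With these factors the MTZ-treated ratios of Ifng and Gzmb over all barcodes would be under 2-fold, and the counts of genes past 2-fold above were made without them. The direction of Ifng in the MTZ-treated library thus differed between the fractions, lower than the library labelled Healthy in the negative and higher in the positive cells, and this difference was not tested.

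Isg15, an interferon-stimulated gene, was 2.44 times higher in the positive cells of the MTZ-treated library than in those labelled Healthy, and 3.12 times (interval 2.32 to 4.14) without mixed barcodes. In the MTZ-preventive library Ifi27l2a was at 513 CPM against 1239 CPM in the library labelled Healthy, a ratio of 0.414, and 0.288 (interval 0.240 to 0.342) without mixed barcodes, while in the negative cells Ifi27l2a was at 618 against 344 CPM with all barcodes and had a ratio of 0.521 (interval 0.243 to 1.03) without the mixed ones. Id3 turned with the mixed barcodes: it was 2.94 times higher in the MTZ-treated library with them and 0.657 times (interval 0.379 to 1.06) without them.

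In the positive cells, genes that the study uses to describe its T cells did not differ past counting error by ratios of CPM without normalization factors. Il2rb was at 238, 209 and 284 CPM, with ratios to the library labelled Healthy of 0.876 (interval 0.502 to 1.43) and 1.19 (interval 0.957 to 1.48) in the MTZ-treated and MTZ-preventive libraries. Cd8b1 had ratios of 0.717 (interval 0.459 to 1.07) and 0.866 (interval 0.722 to 1.03), and Nr4a1 of 0.966 (interval 0.749 to 1.23) and 0.977 (interval 0.869 to 1.10). Cxcr3, at 34.2, 49.1 and 23.3 CPM, had ratios of 1.44 (interval 0.370 to 4.03) and 0.682 (interval 0.312 to 1.38). All of these intervals include equal levels, as do those of Il2rb, Cd8b1 and Nr4a1 without mixed barcodes. Those of Cxcr3 and the MTZ-treated one of Cd8b1 would also hold a change past 2-fold. The ratios leave out the TMM normalization factors, 0.877, 1.28 and 0.893 for the positive cells of the Healthy, MTZ-treated and MTZ-preventive libraries. Those factors would lower the MTZ-treated ratios and their limits, and the intervals of Il2rb, Cd8b1 and Nr4a1 there would then lie below equal levels. The result for the MTZ-treated library thus holds only for ratios without these factors.

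The genes with the highest and lowest ratios between libraries were mostly those of other cells. Cfd and Hp, genes of fat tissue and plasma proteins, were among the 5 highest in the MTZ-preventive library over each of the other 2 in both fractions. Cfd reached no UMI in the 104 negative cells of the library labelled Healthy. Apoe was among the 5 lowest in the negative cells of both MTZ libraries against the library labelled Healthy, at 4.67 and 4.71 against 243 CPM, which follows the level of Apoe over all cells given above.

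The TCR contigs also showed which cytotoxic cells were related. Cells of 1 library with the same beta chain V gene, J gene and junction sequence (CDR3, the part of the receptor made by rearrangement) were counted as a clone. In the library labelled Healthy, 11 of 132 positive cells with a beta chain were in a clone of at least 2 cytotoxic or other cells (8.33%, interval 4.23 to 14.4), in the MTZ-preventive library 9 of 66 (13.6%, interval 6.43 to 24.3) and in the MTZ-treated library 0 of 7. Among CD8 T cells without the 6 genes the shares were 2 of 64 (3.13%) and 1 of 26 (3.85%), whose intervals overlap those of the cytotoxic cells.

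The 6 junctions found in at least 2 cytotoxic cells of a library are shown because each is a repeated rearrangement that identifies related cells. They are the CDR3 of the beta chain, 5′ to 3′, with the conserved first and last codons in capitals.
Healthy, TRBV3 TRBJ2-1, 4 of 4 cells cytotoxic: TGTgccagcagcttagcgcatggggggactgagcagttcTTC
Healthy, TRBV13-1 TRBJ2-4, 3 of 3 cells cytotoxic: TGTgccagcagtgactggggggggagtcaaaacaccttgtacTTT
Healthy, TRBV12-2 TRBJ2-7, 2 of 5 cells cytotoxic: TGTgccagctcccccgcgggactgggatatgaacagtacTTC
MTZ-preventive, TRBV31 TRBJ1-3, 4 of 4 cells cytotoxic: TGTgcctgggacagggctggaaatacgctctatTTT
MTZ-preventive, TRBV13-3 TRBJ1-4, 2 of 2 cells cytotoxic: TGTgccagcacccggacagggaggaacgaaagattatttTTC
MTZ-preventive, TRBV26 TRBJ2-5, 2 of 2 cells cytotoxic: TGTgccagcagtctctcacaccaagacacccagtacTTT

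For 5 of these 6 junctions every cell that carried it met the rule, although they were listed for their cytotoxic cells. The TRBV13-3 and TRBV26 junctions occurred together in 1 cell, so they stand for 3 cells and not 4, each of them cytotoxic. The alpha chains went with the beta chains, as the TRBV3 clone had TRAV5-1 with TRAJ12 in 3 of 3 cells with an alpha contig, the TRBV13-1 clone had TRAV4-4-DV10 with TRAJ17 in 3 of 3 and the TRBV31 clone had TRAV7N-6 with TRAJ11 in 2 of 2. The TRBV12-2 clone crossed the rule. All 5 of its cells had a CD8 UMI, and they carried from 2 to 4 of the 6 genes.

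Invariant NKT cells, T cells with a fixed TRAV11-TRAJ18 alpha chain that can also kill, were a minor source of cytotoxic cells as far as contigs show. The TRAV11-TRAJ18 pair was found in 7 cells past the limits, 1 of which met the rule, a cell of the library labelled Healthy with 4 of the 6 genes and no CD8 or CD4 UMI. Its alpha junction is shown, with first and last codons in capitals, because the pair defines this cell type.
Healthy, TRAV11 TRAJ18: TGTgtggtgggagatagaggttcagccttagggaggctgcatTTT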

How the data were processed

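Single-cell gene expression, TCR and BCR libraries were made from pooled aortas, 1 of each per condition. Per the file headers the expression matrices came from Cell Ranger 5.0.0, and the submitters' processing notes name STAR and mm10. The deposited matrices hold UMI counts per gene and barcode, not normalized, for 73666 barcodes and 32245 genes, with 38 symbols on several lines summed here. The contig tables the authors deposited give the V, J and CDR3 of each contig with its count of UMIs. There were 0 columns of unknown samples. The members and gene lists were chosen with earlier results of these data known. Groups come from the sample labels. No doublet caller was run. Barcodes with at least 3 markers of another cell class, or a BCR contig, were left out as an alternative.

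Counts were summed per library and fraction and tested with edgeR 4.0.16 (quasi-likelihood, TMM, filterByExpr, at least 20 cells per library and fraction, Benjamini-Hochberg at 0.05) in R 4.3.3, with library as the block that pairs fractions of 1 pool of aortas. DESeq2 1.42.0 was an alternative. Adjusted p values given are edgeR's, and p measures the spread between libraries that also differ in condition. Libraries were compared by ratios of CPM with exact conditional binomial intervals (SciPy 1.17.1, Python 3.11.15), and shares by Clopper-Pearson intervals at 95%. A count of 0 was bounded by 3 counts over the group. The edgeR tests and the intervals were tried on simulated counts. Between the fractions, 48.9% of genes with a true log2 change of 1 and 97.7% with one of 2 were recovered. Between the cytotoxic and other CD8 T cells these were 25.3% and 87.5%, so a gene not called can differ by a log2 of 1. Genes were named if they belonged to the rule or a list, were among the 10 largest called differences per direction in a test or the 5 largest ratios per direction between libraries, or were Il2rb, Cd8b1, Nr4a1 or Cxcr3. T cell receptor and immunoglobulin variable genes, mitochondrial genes and unnamed models were left out of the latter ranks. A few genes that met these rules are not reported here.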

Additional observations from a re-analysis of the deposited data

How the results depend on the processing

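Shares of cytotoxic cells kept their order between the AS library and the other 3 under each alternative. With looser limits (more than 500 UMIs, less than 20% mitochondrial) they were 1.98%, 1.16% and 1.12% in the Healthy, MTZ-treated and MTZ-preventive libraries. Thinned to 1000 UMIs they were 1.51%, 0% (AS), 1.36% and 0.834%, and with at least 4 of the 6 genes 1.44%, 0% (AS), 1.01% and 0.656%. Over cells without B cell genes they were 5.24% (Healthy) and 1.84% (MTZ-preventive), and without mixed barcodes 2.53%, 1.21% and 1.18%. The negative share of cytotoxic cells became 58.1%, 82.7% and 58.8% after thinning, and 31.8% in the MTZ-preventive library without mixed barcodes. With contigs of at least 3 UMIs, 0% of negative cells (Healthy) and 41.3% of positive cells (MTZ-preventive) had one. Between the fractions, 89 genes were called by DESeq2, 44 with no library block, 474 without mixed barcodes (205 of them shared with the 248) and 444 when split by TCR contig (224 shared), and 81 to 253 leaving out 1 library. Between the cytotoxic and other CD8 T cells the count was 565 with DESeq2 size factors, 60 by DESeq2, 703 unfiltered, 13 with no library block, 147 thinned, 166 without mixed barcodes and 70 against CD8 T cells with fewer than 3 of the 6 genes, and leaving out a library was not possible with 2 libraries. The cause of these changes was not tested. At a minimum of 20 CPM, the genes past 2-fold were 9.84% (MTZ-preventive over Healthy) and 40.9% (MTZ-preventive over MTZ-treated) in the positive cells and 30.8% and 27.8% in the negative cells. Without mixed barcodes they were 17.5% (MTZ-treated over Healthy) and 10.3% (MTZ-preventive over Healthy) in the negative cells. No named gene called in either test changed sign under an alternative, but the full set of the second test was less stable. Of the 280 genes called between the cytotoxic and other CD8 T cells, 23 changed sign without mixed barcodes. Against CD8 T cells with fewer than 3 of the 6 genes 19 did, and 4 did when thinned. Id3 turned between libraries in the positive cells without mixed barcodes (0.657 times, MTZ-treated over Healthy). Comparisons with the AS library were not run, as it held 1 cytotoxic cell, and library depth limits the MTZ-treated positive cells most, where 3 UMIs are 36.9 CPM.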

Other observations

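The MTZ-preventive library held a repeated receptor among CD4 T cells without the 6 genes as well, with 6 of 34 cells with a beta chain in a clone of at least 2 (17.6%, interval 6.76 to 34.5), while the library labelled Healthy had 0 of 106, which allows a share of up to 2.83%. The MTZ-preventive cytotoxic cells, at 9 of 66 (13.6%, interval 6.43 to 24.3), lay between these values. The difference between libraries was not tested, as each condition had 1 library.

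Cfd, the adipocyte gene adipsin, gave no UMI in the negative cells of the library labelled Healthy, and adipocyte markers summed to 4441 CPM in the negative and 1177 CPM in the positive cells of the MTZ-preventive library, against 0 to 18.7 CPM in those of the other 2 libraries. In the CD8 T cells without the 6 genes the same list summed to 63.5 CPM (Healthy) and 2775 CPM (MTZ-preventive).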
